A study of Mus musculus with 8 samples.

Results

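Immediate early genes are switched on within minutes of a stimulus, without new protein synthesis, and most encode transcription factors. They were followed here in whole hearts of female and male mice. The genes considered were 10 well-known members of the class: the orphan nuclear receptor gene Nr4a1, the AP-1 subunit genes Fos, Fosb, Jun and Junb, the AP-1 related factor Atf3, the zinc finger genes Klf2 and Egr1, the growth regulator Myc, and Ier2. They were picked out by gene symbol, with earlier results of the series known when they were listed. A probe with such a symbol was found for 6 of the 10, namely Nr4a1, Fos, Klf2, Myc, Junb and Ier2, each by 1 probe, among 6106 genes with a symbol. Jun, Egr1, Atf3 and Fosb were not analysed here.

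All mice were C57BL/6, an inbred strain, and the labels name no treatment or genetic change. Total RNA of 6 whole hearts was combined for each sex at 2 and at 8 months of age, giving 4 pools. Female and male pools of the same age were hybridised together in 2 dyes on 4 arrays per age. Cy3 marked the female pool on replicates 1 and 3, and Cy5 marked it on replicates 2 and 4. Each age therefore has 1 pool per sex, the 4 arrays are technical repeats, and a standard deviation (SD) over arrays does not measure the spread between animals.

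The deposited values are ratios of one dye to the other, so they give no level of a gene, and levels of different genes could not be compared. All ratios below are log2 of female over male, so that 1 is a doubling in the female pool and a negative value is lower in females. In bulk RNA of a whole heart, a change in the number of expressing cells and a change in RNA per cell cannot be told apart. Of the 12 listed heart muscle markers, 9 had a ratio at both ages (Myh6, Tnnt2, Ryr2 and Actc1 among them), with a median of -0.02 at 2 months and -0.27 at 8 months. The sign of the list's median varied between arrays. On replicates 1 to 4 it was 0.14, -0.15, 0.05 and -0.05 at 2 months and -0.23, -0.60, 0.45 and -0.77 at 8 months. The sexes separated by their sex-linked transcripts, with Xist at 2.44 and 3.45 and the Y-linked Kdm5d at -2.43 and -2.88 at 2 and 8 months.

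Signals that raise intracellular calcium, cyclic AMP or MAP kinase activity reach these genes through factors already present in the cell, such as CREB and serum response factor. CREB binds the cyclic AMP response element, of which TGACG is the core. The products act on later waves of genes: Fos and Jun proteins pair as AP-1, and Nr4a1 is an orphan nuclear receptor that binds DNA and can act without a ligand. In heart and vessels Klf2 is known as a gene that endothelial cells express under steady blood flow, and in lymphocytes Nr4a1 is known as a marker of recent antigen receptor signalling.

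The sequence around the start sites is shown because CREB-type elements are a known route to these genes and the promoters can be compared for them. Promoters from RefSeq (build GRCm38.p6, 250 bases before to 50 after the start) were found for 4 of the 6 genes: Nr4a1 at chr15:101266596-101266895 on the plus strand, Fos at chr12:85473640-85473939 on the plus strand, Klf2 at chr8:72318812-72319111 on the plus strand and Junb at chr8:84978699-84978998 on the minus strand. Each is written 5′ to 3′ along its gene, and capitals mark TGACG or its reverse complement CGTCA.
Nr4a1: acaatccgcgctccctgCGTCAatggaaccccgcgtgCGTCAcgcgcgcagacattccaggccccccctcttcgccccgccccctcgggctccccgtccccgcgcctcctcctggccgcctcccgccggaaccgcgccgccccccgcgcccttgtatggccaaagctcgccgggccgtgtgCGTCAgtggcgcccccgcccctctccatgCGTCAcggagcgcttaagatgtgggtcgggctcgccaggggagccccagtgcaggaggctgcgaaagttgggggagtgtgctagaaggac
Fos: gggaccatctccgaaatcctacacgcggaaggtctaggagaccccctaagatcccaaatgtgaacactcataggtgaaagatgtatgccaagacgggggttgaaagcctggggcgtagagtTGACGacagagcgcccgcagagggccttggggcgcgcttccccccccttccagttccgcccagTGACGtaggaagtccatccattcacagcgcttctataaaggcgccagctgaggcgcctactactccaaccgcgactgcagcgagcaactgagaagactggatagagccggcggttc
Klf2: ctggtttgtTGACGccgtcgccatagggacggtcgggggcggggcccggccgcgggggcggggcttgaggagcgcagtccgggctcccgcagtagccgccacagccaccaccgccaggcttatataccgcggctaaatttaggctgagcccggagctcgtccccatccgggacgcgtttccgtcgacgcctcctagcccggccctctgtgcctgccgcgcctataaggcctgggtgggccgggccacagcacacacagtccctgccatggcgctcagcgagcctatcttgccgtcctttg
Junb: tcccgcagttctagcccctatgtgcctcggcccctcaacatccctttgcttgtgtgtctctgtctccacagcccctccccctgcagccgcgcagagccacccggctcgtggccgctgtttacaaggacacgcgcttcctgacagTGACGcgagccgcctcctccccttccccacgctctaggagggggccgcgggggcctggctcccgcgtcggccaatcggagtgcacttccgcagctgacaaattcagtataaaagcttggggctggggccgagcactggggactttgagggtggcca

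The core motif TGACG, searched on both strands, was present in all 4 promoters and in 20.8% of the 32851 promoters in the table. Nr4a1 held 4 copies, all on the minus strand, with their upstream edges 233, 213, 69 and 40 bases before the start, and 0.231% of all promoters held 4 or more. Each of the 4 copies in Nr4a1 was the longer TGACGCA, a form added after the sequence was seen. TGACGCA occurred in 2.12% of promoters, and 1 promoter in the table had 4 or more copies. Fos held 2 copies, at 129 and 66 bases before the start, Klf2 held 1 at 241 and Junb 1 at 106. Neither the full palindrome TGACGTCA (in 1.79% of all promoters), the AP-1 site TGANTCA (7.81%), the CArG box of serum response factor (1.63%) nor the Nr4a1 site AAAGGTCA (1.51%) was found in these 4 windows. TATAAA was found in Fos and Junb and in 13.6% of promoters. These are matches of letters in a short window, and no binding was measured.

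Nr4a1 had the highest ratio of the 6 genes over both ages. At 2 months its ratio was 1.71, 1.17, 1.29 and 0.99 on replicates 1 to 4. All 4 arrays were well above 0, with a mean of 1.29 ± 0.31 (SD, n = 4 arrays), which is 2.44-fold. At 8 months it was 1.76, 0.39, 0.82 and 0.88, with a mean of 0.96 ± 0.57 (SD, n = 4 arrays), or 1.95-fold. The 8-month arrays spread more widely and their range contained that of the 2-month arrays, so the ages overlapped (difference -0.33). Over both ages Nr4a1 was at 1.12 ± 0.14 (SE, n = 2 pool pairs). Each SE over both ages is the moderated one of limma, which draws its variance partly from all tested rows. Nr4a1 did not pass the test over all rows, with an adjusted p of 0.127 (limma with Benjamini-Hochberg adjustment), although it was higher in females on 8 of 8 arrays. The test calls 0.0896% of the 7812 tested rows, and none of the 6 genes was among them.

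The call for Nr4a1 changed with the arrays and rows used, while its sign did not. It passed without replicate 1 at 8 months (1.01, limma adjusted p = 0.00356) and without replicate 4 at 8 months (1.06, limma adjusted p = 0.00261). It also passed when only rows with values on all 8 arrays were tested (1.12, limma adjusted p = 0.0357). The calls over all rows rose too, to 95, 104 and 16 in these settings, against 7 in the main test. Without replicate 4, replicate 2 was the only 8-month array with females in Cy5. With the 8-month value from replicates 3 and 4 alone it was at 1.07 with a limma adjusted p of 0.517. Across the 19 alternatives tried it ranged from 1.01 to 1.31, and its adjusted p (limma) from 0.00261 to 0.645.

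Klf2 was higher in the female pool at 2 months with the tightest agreement of arrays among the 6 genes. It was at 0.82, 0.93, 0.79 and 0.84 on replicates 1 to 4, a mean of 0.85 ± 0.06 (SD, n = 4 arrays) or 1.80-fold. At 8 months it was at -0.14, -0.01, 0.49 and 0.45, a mean of 0.19 ± 0.32 (SD, n = 4 arrays). The first 2 of these arrays lay just below 0 and the other two above it, and all 4 lay under every 2-month array. The ratio fell by 0.65 from 2 to 8 months, which meets the size rule for a difference of the ages (at least 1.5-fold with no overlap of arrays), as did 3.29% of tested rows. With replicates 3 and 4 alone at 8 months it fell by 0.38, under 1.5-fold. Leaving out replicate 1 or replicate 2 at 8 months also took it under 1.5-fold (falls of 0.50 and 0.54). Over both ages Klf2 was at 0.52 ± 0.18 (SE, n = 2 pool pairs; limma adjusted p = 0.436).

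Fos had the opposite order of ages. At 2 months it was at 0.34, 0.17, 0.52 and 0.12 on replicates 1 to 4, a mean of 0.28 ± 0.18 (SD, n = 4 arrays), or 1.22-fold. At 8 months it was at 0.20, 1.85, 0.80 and 1.20, a mean of 1.01 ± 0.69 (SD, n = 4 arrays), or 2.02-fold. All 8 arrays were above 0, and at 8 months replicate 1 was the one array inside the 2-month range. The difference of 0.73 between the ages therefore missed the size rule. It met the rule without replicate 1 at 8 months (0.88), with replicates 3 and 4 alone (0.71) and with the running median along the array removed (0.60). Over both ages Fos was at 0.65 ± 0.19 (SE, n = 2 pool pairs; limma adjusted p = 0.368).

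Myc, which drives growth and ribosome production, was modestly positive. Its ratio was 0.24, 0.74, 0.39 and 0.44 at 2 months, a mean of 0.45 ± 0.21 (SD, n = 4 arrays) or 1.37-fold. At 8 months it was 0.70, -0.18, 0.28 and 0.26, a mean of 0.27 ± 0.36 (SD, n = 4 arrays). Replicate 2 at 8 months was the one negative array of the 8, and the ages overlapped. Over both ages Myc was at 0.36 ± 0.13 (SE, n = 2 pool pairs; limma adjusted p = 0.449).

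Junb and Ier2 had ratios near 0. Junb, the partner of Fos in AP-1, was at 0.15, -0.02, 0.14 and 0.02 at 2 months and at 0.52, -1.12, 0.13 and -0.09 at 8 months. Its means were 0.07 ± 0.08 and -0.14 ± 0.70 (SD, n = 4 arrays each), so that replicate 2 alone set the 8-month sign. Ier2, a short-lived nuclear protein of the early response, was at 0.17, -0.18, 0.00489 and -0.30 at 2 months and at -0.19, -0.02, 0.38 and -0.27 at 8 months. Its means were -0.07 ± 0.21 and -0.03 ± 0.29 (SD, n = 4 arrays each). Over both ages Junb was at -0.03 ± 0.13 and Ier2 at -0.05 ± 0.12 (SE, n = 2 pool pairs), with limma adjusted p-values of 0.966 and 0.938. The signs of both flipped when the running median was removed (Junb 0.03, Ier2 0.02), and that of Junb also when arrays were scaled to 1 spread (0.05).

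**Figure D1:**
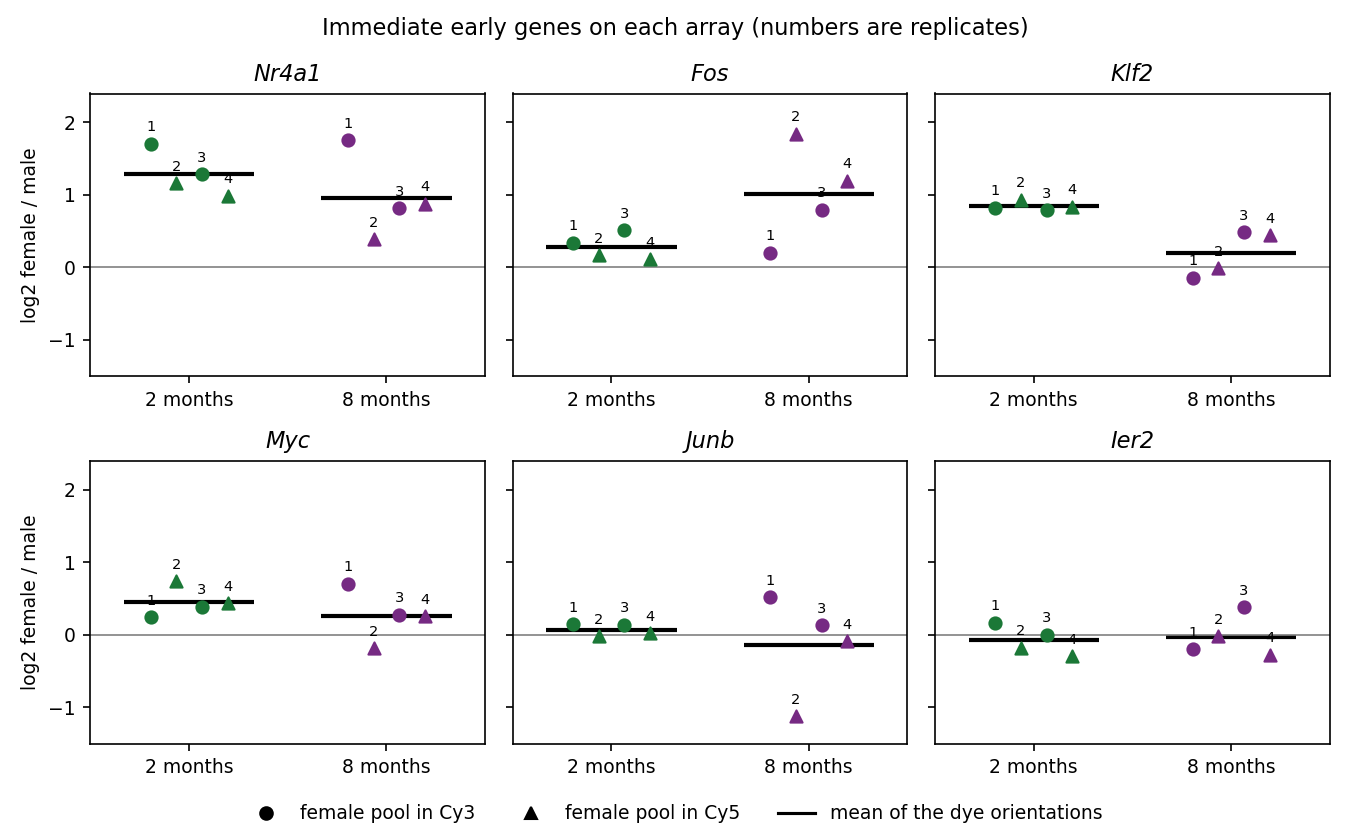
Log2 female over male ratio (vertical axis) of 6 immediate early genes on each array at 2 and 8 months; each point is 1 array, numbered by replicate and shaped by the dye of the female pool, and the black line is the mean of the dye orientations. Nr4a1 and Fos lie above 0 on all 8 arrays, Klf2 is tight near 0.85 at 2 months and lower at 8 months, and Junb and Ier2 scatter around 0.

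Among the 6 genes, 4 had means above 0 at both ages, as did 24.4% of all tested rows. All arrays were above 0 for 4 of the 6 at 2 months (17.7% of rows), for 2 of the 6 at 8 months (5.79% of rows) and for 2 of the 6, Nr4a1 and Fos, at both ages (1.8% of rows). By the size rule at 1 age, which asks for a change of 1.5-fold or more and the same sign on each array of that age, Nr4a1 and Klf2 were higher in females at 2 months (2.41% of rows) and Nr4a1 and Fos at 8 months (1.68% of rows). None of the 6 was lower by that rule, which 1.77% of rows met downward at 2 months and 1.31% at 8 months. The median over the 6 was 0.37 at 2 months and 0.23 at 8 months, against -0.02 and -0.03 over all tested rows. Because the genes were listed with earlier results known, these shares describe the genes and are not independent evidence. By mean ratio among the 5851 tested genes with a symbol, Nr4a1 ranked 44 at 2 months and 37 at 8 months, Klf2 82 and 1057, Fos 496 and 33, and Myc 230 and 723.

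At 8 months, replicates 1 and 2 carried a trend along the feature number, the order of probes on the array, and it reached these genes. The running median of all probes varied by 0.51 and 0.82 (SD, log2) on those 2 arrays and by 0.041 to 0.076 on the other 6. At the place of Nr4a1 (probe 8374) it was 0.51 on replicate 1 and -0.97 on replicate 2. Without it Nr4a1 stood at 1.24, 1.36, 0.86 and 0.90 on replicates 1 to 4, a mean of 1.09 ± 0.25 (SD, n = 4 arrays), so its 4 arrays lay closer together than as deposited. Fos (probe 1993), in a stretch with the reverse trend (-0.28 and 0.88), came to 0.48, 0.97, 0.73 and 1.23, a mean of 0.85 ± 0.32. Junb (probe 7150) came to -0.02 ± 0.13, and its -1.12 on replicate 2 stood beside a running median of -1.10. For Myc (probe 7096) all 4 arrays became positive, with a mean of 0.39 ± 0.39, slightly wider than the SD of 0.36 as deposited. For Klf2 (probe 9840) and Ier2 (probe 8182) the spread widened more, to 0.28 ± 0.52 and 0.09 ± 0.73, since their own ratios on replicates 1 and 2 did not follow the local trend. Over both ages no gene of the 6 passed the test after this step (limma adjusted p = 0.324 for Nr4a1).

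**Figure D2:**
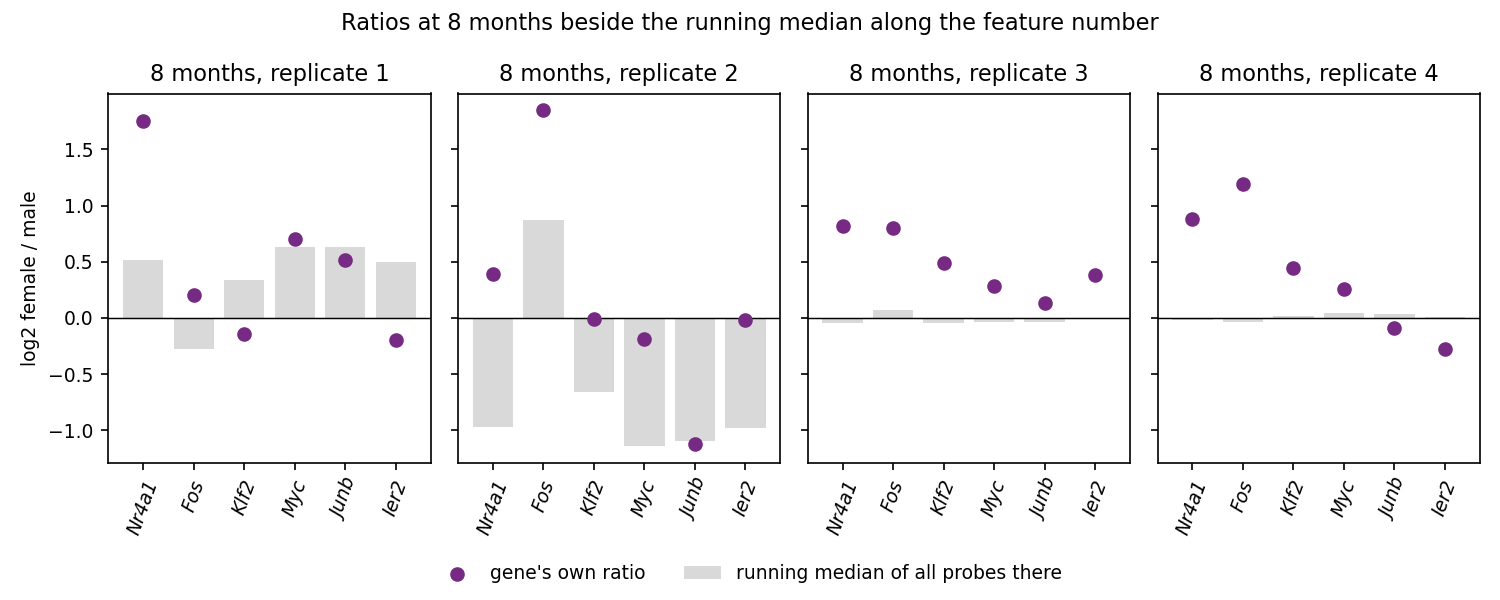
Log2 female over male ratio (vertical axis) of the 6 genes on the 4 arrays at 8 months; points are the genes' own ratios and grey bars the running median of all probes at each gene's place on the array. On replicates 1 and 2 the bars reach 0.63 and -1.14, while on replicates 3 and 4 they are close to 0.

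Ratios of the 6 genes differed between the dye orientations, each a mean of 2 arrays. At 2 months Nr4a1 averaged 1.497 with females in Cy3 and 1.08 with females in Cy5, and Fos 0.43 and 0.14. Klf2 averaged 0.81 and 0.89 and Myc 0.32 and 0.59. At 8 months Nr4a1 averaged 1.29 and 0.63 and Klf2 0.17 and 0.22. The order of the orientations turned between the ages for Fos, at 0.50 and 1.52, and for Myc, at 0.49 and 0.04. For these 4 genes both orientations had the same sign at each age. Ier2 had opposite signs by orientation at 2 months (0.09 and -0.24) and at 8 months (0.09 and -0.15), as did Junb at 8 months (0.32 and -0.60). Each 8-month orientation mean includes 1 array with the trend, replicate 1 for Cy3 and replicate 2 for Cy5. On replicates 3 (Cy3) and 4 (Cy5) Nr4a1 was at 0.82 and 0.88, Fos at 0.80 and 1.20 and Klf2 at 0.49 and 0.45. Myc was at 0.28 and 0.26 there, Junb at 0.13 and -0.09 and Ier2 at 0.38 and -0.27.

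The closest relatives of these factors did not share one pattern. They were named as paralogs, Nr4a2 apart, outside the rule for named genes. Nr4a2, an orphan receptor of the same family, was at -0.08 ± 0.23 at 2 months (SD, n = 3 arrays) and 0.68 ± 0.65 at 8 months (n = 3 arrays), and met the size rule upward at 8 months. On its 3 arrays at 8 months it was at 1.39, 0.62 and 0.09 (replicates 2 to 4), and from replicates 3 and 4 alone it was at 0.36, under 1.5-fold. Nr4a3, the third receptor of the family, was at -0.21 ± 0.87 and 0.78 ± 0.61 (SD, n = 4 arrays each), with 1 array of each age against the other three. Jund, an AP-1 subunit, was at 0.22, 0.16, 0.20 and 0.20 at 2 months, a mean of 0.19 ± 0.02, and at 0.16 ± 0.44 at 8 months. Fosl1, a Fos relative, was at -0.07 ± 0.39 and -0.16 ± 1.40.

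Nr4a2, Nr4a3, Jund and Fosl1 belong to a list of 58 other early response genes, of which 37 were on the array and all 37 were tested. None passed the test over all rows, and 3 had an unadjusted p below 0.05 (limma), against 811 of all 7812 tested rows. By the size rule 2 were higher and 0 lower in females at 2 months. At 8 months 3 were higher, Nr4a2 among them, and 0 lower. Of all tested rows, 2.41% were higher and 1.77% lower at 2 months, and 1.68% and 1.31% at 8 months. Their median was 0.06 at each age, with 20 of 37 positive at 2 months and 21 of 37 at 8 months. Of all 7812 tested rows, 3621 were positive at 2 months and 3515 at 8 months, with medians of -0.02 and -0.03.

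Those past the size rule had different functions. Dusp2, a nuclear MAP kinase phosphatase, had the largest ratio of the list at 2 months, at 1.97, 1.91, 1.93 and 1.34, a mean of 1.78 ± 0.30 (SD, n = 4 arrays). At 8 months it was at 1.37, -0.13, 0.43 and 0.46, a mean of 0.53 ± 0.62. Nfkbia, the inhibitor that holds NF-kappaB in the cytoplasm, was at 0.72, 0.85, 0.57 and 0.72 at 2 months, a mean of 0.71 ± 0.11, and at 0.08 ± 0.19 at 8 months, with no overlap of the ages. Thbs1, the matrix glycoprotein thrombospondin 1, went the other way. It was negative on all arrays at 2 months, at -0.26 ± 0.21, and positive on all arrays at 8 months, at 1.05 ± 0.34. Socs3, which damps cytokine signalling, was at 0.11 ± 0.33 at 2 months and 0.78 ± 0.58 at 8 months. From replicates 3 and 4 alone, without the arrays that carry the trend, it was at 0.55 at 8 months, under 1.5-fold. The next by size over both ages were Maff, a small Maf protein, at -0.46 and the stress gene Gadd45a at -0.40, both short of the size rule at each age. Both had SDs above 1 at 8 months (1.08 and 1.23), and on replicates 3 and 4 they were at 0.11 and -0.19.

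**Figure D3:**
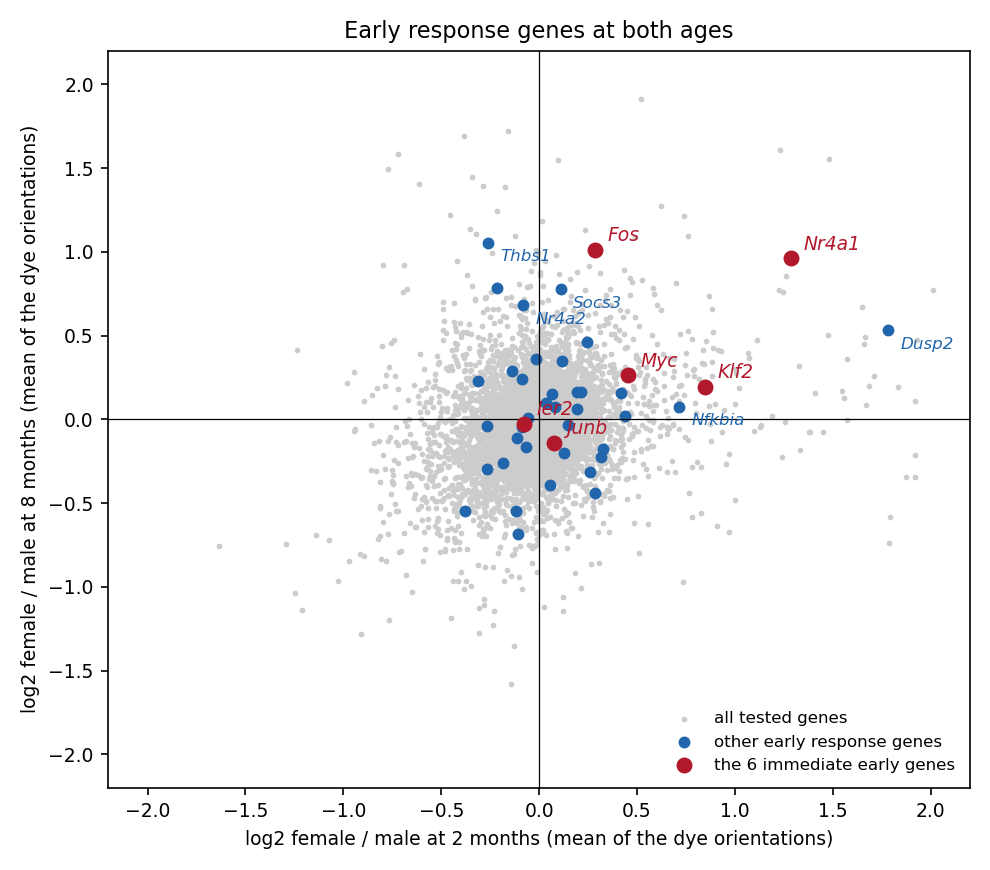
Mean log2 female over male ratio at 2 months (horizontal axis) against 8 months (vertical axis) for 5831 tested genes (grey; 20 lie outside the axes), with other early response genes in blue and the 6 immediate early genes in red. Nr4a1 stands apart at both ages, Klf2, Dusp2 and Nfkbia mainly at 2 months, and Fos, Thbs1, Socs3 and Nr4a2 at 8 months.

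Of 21 tested kinases and factors upstream, 14 were negative at both ages, as were 33% of all tested rows. Positive at both were 2 of the 21, and 24.4% of all rows. The medians were -0.11 and -0.19, and none of the 21 passed the test over all rows. By the size rule Camk4, a calcium-dependent kinase that phosphorylates CREB and is abundant in lymphocytes, was higher at 2 months at 0.90 ± 0.34, and Mapk14, the stress kinase p38 alpha, was lower at -0.66 ± 0.70 (SD, n = 4 arrays each). At 8 months Camk4 was at 0.09 ± 0.43 and Mapk14 at -0.38 ± 1.16. Mapk14 also depended on the dye at 2 months, with females in Cy3 giving -0.15 and -0.01 and females in Cy5 giving -1.06 and -1.44. Srf, the serum response factor, was at -0.56 ± 0.37 and -0.35 ± 0.50. Prkaca, the catalytic subunit of protein kinase A, was at -0.40 ± 0.70 and -0.53 ± 0.48. Its sign at 2 months turned with the orientation, with 0.08 and 0.26 for females in Cy3 and -0.69 and -1.25 for females in Cy5.

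Partners of these proteins showed no size-rule change, with 0 of 8 higher or lower at either age. Rxra, the retinoid receptor that pairs with Nr4a1, was at -0.51 ± 0.72 and -0.79 ± 0.78 (SD, n = 4 arrays each). At 2 months it was at 0.02 and 0.13 with females in Cy3 and at -0.78 and -1.40 with females in Cy5. Atf4, a bZIP factor, was at 0.26 and 0.17, and Nab1 and Nab2, corepressors of Egr proteins, were at 0.22 and 0.21 at 2 months and 0.02 and -0.02 at 8 months.

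Known targets of the factors were listed by factor and are described by counts. Of 7 tested Nr4a1 targets in muscle metabolism, 5 were negative at both ages, against 33% of all tested rows, with medians of -0.06 and -0.31. Fbp2, muscle fructose bisphosphatase, was at -0.13 and -0.51, Eno3, muscle enolase, at -0.24 and -0.34, and the fatty acid transporter Cd36 at -0.21 and -0.31. The sign of Eno3 turned with the dye at both ages. With females in Cy3 it was at 0.11 and 0.25 at 2 months and 0.24 and 0.05 at 8 months. With females in Cy5 it was at -0.50 and -0.81, and at -1.04 and -0.60. Bpgm, a glycolytic side enzyme abundant in red cells, was at -0.03 ± 0.24 and then 0.93 ± 0.23 (SD, n = 4 arrays each), past the size rule at 8 months. Of 6 tested Klf2 targets none met the size rule: the lymphocyte receptor gene S1pr1 was at 0.31 and 0.23, the integrin gene Itgb7 at 0.47 and 0.04, and the endothelial genes Nos3 and Thbd at -0.21 and 0.23 at 2 months and -0.07 and -0.48 at 8 months.

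Of 10 tested Myc targets, 3 were positive and 3 negative at both ages, as were 24.4% and 33% of all tested rows. Tfrc, the transferrin receptor, met the size rule downward at 2 months at -1.24 ± 0.62 and was at 0.41 ± 0.58 at 8 months. The translation factor genes Eif4e and Eif4a1 were at -0.21 and 0.27 at 2 months and -0.80 and 0.17 at 8 months, and the nucleolar gene Nop58 at 0.08 and 0.42. Of 8 tested AP-1 targets, 1 was positive and 4 negative at both ages, against the same 24.4% and 33% of rows. By the size rule 2 were higher at 8 months, as were 1.68% of rows. Timp1, an inhibitor of matrix proteases, was at -0.16 ± 0.24 at 2 months and 1.72 ± 0.97 at 8 months. The other, the matrix protease gene Mmp9, named after its values were seen, was at -0.49 ± 0.72 and 0.59 ± 0.32. Plau, Hmox1 and Ccnd1, a plasminogen activator, heme oxygenase 1 and cyclin D1, were at -0.43, -0.31 and -0.23 at 2 months and -0.22, -0.30 and -0.30 at 8 months. None of the targets passed the test over all rows.

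Markers of T cells, thymus and fat were higher in the female pool at 2 months. Klf2 met the size rule at that age alone, and Nr4a1 met it at both ages. Of 12 tested T cell and thymus markers, 10 were higher and 0 lower by the size rule in the female pool. Of all tested rows, 2.41% were higher and 1.77% lower by it at 2 months. The list's median lay between 1.71 and 2.91 on the 4 arrays. Rag1 was at 4.48, Cd8a at 3.74, Dntt at 3.60 and the thymic chemokine Ccl25 at 2.91. Thymocytes are known to express Nr4a1, Klf2, Dusp2 and Camk4, and the part of these markers in their 2-month ratios was not tested. At 8 months the list's median was between -0.07 and 0.29 on the 4 arrays. Means were above 0 for 8 of the 12 markers, and for 3515 of all 7812 tested rows. By the size rule 1 marker was higher (Rag1 at 1.15) and 1 lower (Foxn1 at -0.63, 3 arrays), against 1.68% and 1.31% of tested rows. At that age Nr4a1 was at 0.96 and Fos at 1.01. Rag1 was positive on all 4 arrays at 8 months, at 0.21, 2.11, 0.60 and 1.69, and Il7r on its 3 arrays (mean 0.44). Foxn1 was negative on its 3 arrays, at -1.67, -0.06 and -0.75. Cd3d was negative on all 4, at -0.49, -0.21, -0.03 and -0.52. The part of T cells in the 8-month ratios was not tested either.

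Of 7 tested fat markers, 5 were higher by the size rule at 2 months, as were 2.41% of tested rows. Among them were Ucp1 at 2.99, Fasn at 1.88, Cidec at 1.71 and Car3 at 1.33. Their median was 1.40 to 1.88 on the 2-month arrays and -0.07 to 0.06 on the 8-month arrays. The median over the genes' age means was 1.71 at 2 months and -0.35 at 8 months. At 8 months 3 of the 7 had means above 0, Ucp1 at 0.34, Car3 at 0.32 and Cidec at 0.26. The others were below 0, with Scd1 at -0.58, Fabp4 at -0.41, Elovl3 at -0.35 and Fasn at -0.35. Myeloid markers were negative at 2 months for 12 of 12 and positive at 8 months for 9 of 12, with medians of -0.40 and 0.25. Of all 7812 tested rows, 3621 were positive at 2 months and 3515 at 8 months, with medians of -0.02 and -0.03. Ccr2 and C1qa were at -0.82 and -0.80 at 2 months. C1qa was then at -0.12 and 0.16 with females in Cy3 and at -1.40 and -1.83 with females in Cy5. At 8 months 1 myeloid marker was lower and 0 were higher by the size rule (1.31% and 1.68% of tested rows). The lower one was Cd74, at -0.63 (-0.31 at 2 months). S100a9 was at -0.23 at 2 months and 0.57 at 8 months. Cd68, Adgre1 and Fcgr3, named after their values were seen, were the 3 that met the size rule between the ages (3.29% of rows). They were at -0.48, -0.57 and -0.48 at 2 months and 0.30, 0.22 and 0.52 at 8 months. Endothelial markers, which mark the cells known for Klf2 in the heart, were negative for 8 of 10 at 2 months and 9 of 10 at 8 months, with medians of -0.21 and -0.22. Of these, Kdr was at -0.44 and -0.55, Cdh5 at -0.43 and -0.50, Flt1 at -0.51 and -0.69 and Cldn5 at -0.42 and -0.39. The endothelial median at 2 months differed by orientation, at -0.04 and 0.05 with females in Cy3 and at -0.45 and -0.41 with females in Cy5. Flt1 and Cldn5 followed that split, while Kdr and Cdh5 were negative on all 8 arrays. The part of fat, myeloid and endothelial cells in the ratios of the 6 genes was not tested.

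**Figure D4:**
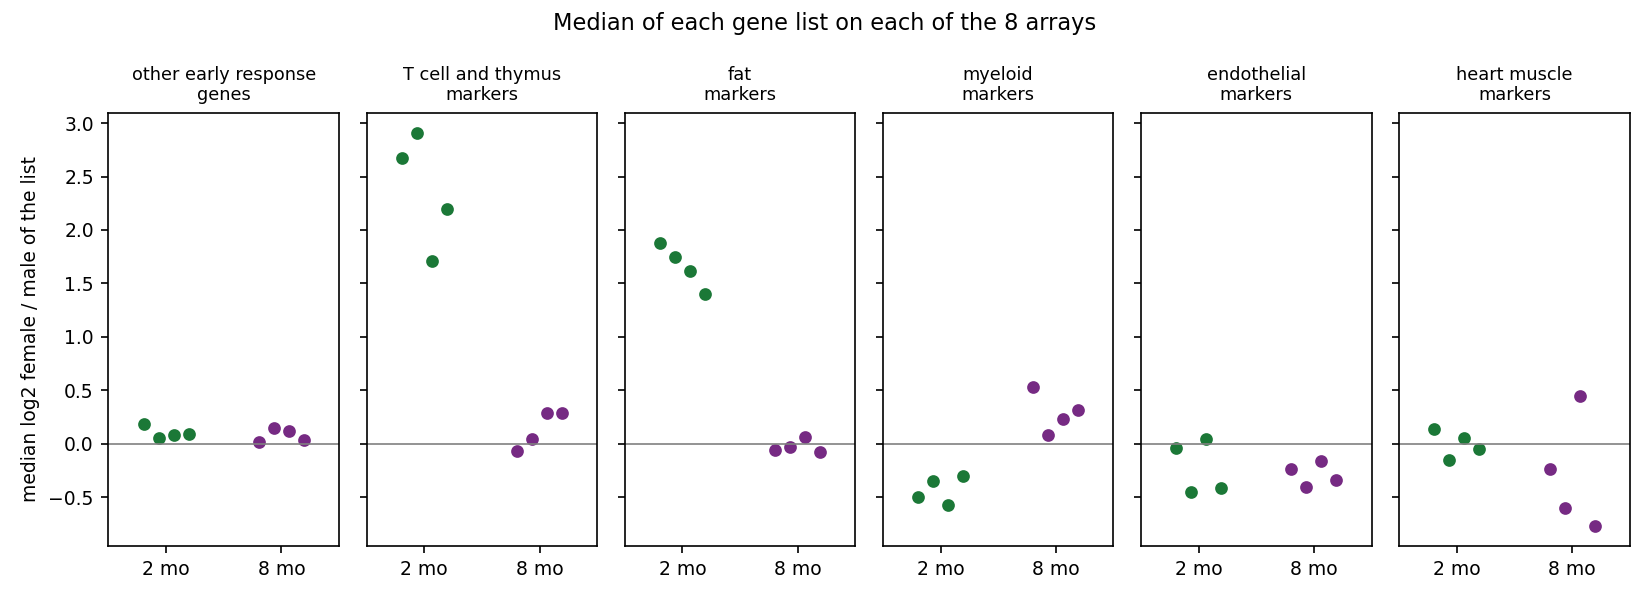
Median log2 female over male ratio of each gene list (vertical axis) on the 4 arrays at 2 months and the 4 at 8 months (1 point per array) for 6 lists. T cell, thymus and fat markers are high on the 2-month arrays alone, while the other early response genes stay between 0.02 and 0.18 on every array.

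The genes whose ratios came nearest to Nr4a1 over the 8 arrays, by root mean square difference among 5633 genes with values on all arrays, were Dusp2 at 0.49, Car3, a carbonic anhydrase of fat, at 0.51, Orm1, an acute phase protein, at 0.51, Nusap1, a mitotic spindle protein, at 0.53 and Car5b, the X-linked mitochondrial carbonic anhydrase, at 0.53. Of these Orm1, Nusap1 and Car5b were positive on all 8 arrays, with means of 1.23, 1.26 and 0.76 at 2 months and 0.77, 0.85 and 1.09 at 8 months. Nearest to Fos were Car2 at 0.20, Apod at 0.31 and Nap1l5 at 0.32. Those 3 and Fos had feature numbers between 161 and 1993. The distance measures the likeness of ratios on these arrays and nothing else.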

How the data were processed

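Whole-heart RNA pools of 2 ages were compared on 8 two-colour arrays. The deposited table holds log10 ratios of Cy5 over Cy3, made with Agilent Feature Extraction 7.1.1, per the labels. Centring was not stated. The dye direction was checked with Xist, Kdm5d and Eif2s3y. Ratios were turned to log2 female over male. An exact 0, 6.38 to 13.9% of values per array, was taken as no measurement. Array medians of the remaining log2 female over male ratios lay between -0.0167 and 0.00812. Signal over background is unknown, so the number of arrays limits precision.

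Of 9607 rows, 6671 had 1 gene symbol (6600 matched RefSeq of GRCm38.p6, used for names), 400 several and 2536 none. Rows of a symbol were averaged. A row needed at least 3 of 4 arrays per age in both orientations: 7812 rows, 5851 named, and all 6 genes passed. An age's value is the mean of its orientations. limma 3.58.1 in R 4.3.3 tested the 2 age means against 0, two-sided, with Benjamini-Hochberg adjustment over all rows and 1 residual degree of freedom per row before moderation. Called means adjusted p below 0.05. No test exists at 1 age. The fit was tested on simulated data.

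Members and lists were chosen with earlier results of these data known. Named are all members, up to 4 genes per other list by size over both ages, every early response gene past the size rule, and the 5 and 3 genes nearest to Nr4a1 and Fos; paralogs were added afterwards. Alternatives covered zeros, filters, centring, scaling, trend, arrays left out, medians, single probes and single-array fits.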

Additional observations from a re-analysis of the deposited data

How the results depend on the processing

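The ratios of Nr4a1, Fos, Klf2 and Myc over both ages kept their sign under all 19 alternatives, and Fos, Klf2 and Myc stayed uncalled under each (lowest limma adjusted p = 0.0759, 0.127 and 0.354). Nr4a1 was at 1.123 and called with values on all 8 arrays, and in fits over single arrays with and without the replicate block. It ranged from 1.006 to 1.24 as arrays were left out. Junb (-0.033) became 0.046 with arrays scaled, 0.025 with the trend removed, 0.048 from replicates 3 and 4 and 0.052 with medians, and ranged from -0.162 to 0.097 as arrays were left out. Ier2 (-0.051) became 0.019 with the trend removed and ranged from -0.123 to 0.021.

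Called rows, 7 as reported, were 0 with exact 0 kept, 16 with values on all 8 arrays, 3 scaled, and 1 with the trend removed, with replicates 3 and 4 or with medians. They ranged from 4 to 104 as arrays were left out. With exact 0 kept, limma called none and Nr4a1 had an adjusted p of 0.5. Single-array fits called 26 rows, or 21 with the replicate block. Their error mixes technical spread with the difference of the ages, and they count technical repeats as replicates. Same-numbered arrays of the 2 ages shared no animals, and their deviations correlated at -0.16, -0.10, 0.54 and 0.55, so the numbers were not taken as pairs. Rows past the size rule, 326 at 2 months, 233 at 8 months and 257 between ages, were 585 and 153 at the 2 ages when scaled. They were 87, 67 and 123 at 2-fold. With arrays left out they were 228 to 520 at 8 months and 279 to 470 between ages, and 455 between ages with replicates 3 and 4. The share of called rows that were higher in females was 71.4% as reported, 60% centred, 33.3% scaled and 100% with the trend removed, over few rows. The cause of these shifts was not tested.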

Other observations

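Of the 3 tested red cell markers, 1 was higher by the size rule at 8 months, Slc4a1, as were 1.68% of tested rows. All 3 had means above 0 there. Car2, a carbonic anhydrase, was at 0.84 ± 0.70 and the anion exchanger Slc4a1 at 0.71 ± 0.08. Alas2, the heme synthesis enzyme of red cells, was at 0.62 ± 0.87 (log2 female over male, SD, n = 4 arrays each). Car2 and Alas2 each had 1 array below 0 (-0.02 and -0.65). At 2 months Car2, Slc4a1 and Alas2 were at 0.47, -0.33 and 0.18. Bpgm was at 0.93 at 8 months and -0.03 at 2 months, and Car2 was also the gene nearest to Fos. Whether blood content of the pools differed was not tested.

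Glucocorticoid response genes, some of which are early response genes too, were higher for 5 and lower for 1 of 11 by the size rule at 2 months. Of all tested rows, 2.41% were higher and 1.77% lower by it. Fkbp5, a chaperone of the receptor, was at 0.76 ± 0.14 and the metallothionein Mt2 at 0.75 ± 0.11, while Pdk4, a kinase that restrains pyruvate dehydrogenase, was at -1.64 ± 0.72. At 8 months these were at 0.53, 0.32 and -0.75, and Lcn2 went from 0.05 to 2.43. The list's median was 0.44 at 2 months and 0.26 at 8 months.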
